A study of Petromyzon marinus with 6 samples.

Results

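Whole sea lamprey embryos of days 3, 4 and 5 after fertilization were set against those of days 1, 2 and 2.5. The comparison used all 6 RNA-seq libraries of the series, with 3 libraries in the later group and 3 in the earlier one. The sea lamprey (Petromyzon marinus) is a jawless vertebrate, and the labels name no treatment, strain or genotype. Each stage was sequenced as 1 library. Stage is therefore not a replicate: the spread within a group is the difference between successive stages together with the error of single libraries. A test that passes here says that the groups differ by more than the stages inside them did. Whether embryos of one stage would vary less or more than this was not measured, and nothing in the sources used here says how many embryos went into a library.

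The unit of measurement was the component, a set of assembled transcript contigs that share an assembler identifier, with the authors' expected counts summed over its contigs. Of 87262 components, 31144 had 60 or more counts over the 6 libraries and were tested. The libraries of days 3, 4 and 5 held 20769571, 19845308 and 15503418 counts, and those of days 1, 2 and 2.5 held 21910022, 17598382 and 18387559. Contig identifiers come without gene names, so groups of genes with a shared function could not be examined and no sequence is shown.

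A vertebrate embryo begins on RNA that the mother stored in the egg, and its own genome is transcribed only after a period of cleavage. The stored transcripts are cleared while transcripts of the embryo accumulate, so that the composition of the RNA pool is replaced. In the sea lamprey, cells that form the body also discard part of the genome during early development, while germ cells keep it. RNA from whole embryos adds up all cells, and a fall in a transcript through fewer cells of a type cannot be told apart from less RNA per cell.

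The later embryos had 5039 components at higher levels and 3952 at lower levels than the earlier ones, by edgeR's quasi-likelihood test at a Benjamini-Hochberg adjusted p of 0.05. Together these were 28.9% of the tested components, with 16.2% higher and 12.7% lower. Their differences were mostly severalfold. On the log2(CPM + 0.5) scale, where CPM is the count relative to the library total scaled by its TMM factor, the median component of the higher group stood 2.00 units above its earlier mean (interquartile range 1.61 to 2.65). The median of the lower group was -1.91 (interquartile range -2.42 to -1.53). A mean difference of at least 8-fold was found in 890 higher components and in 377 lower ones. At 16-fold or more there were 399 higher and 40 lower components, and at 64-fold or more 67 higher and 0 lower. With TMM, the tail of large differences was thus longer on the rising side. Among the 22153 components that were not called, 820 had mean levels that differed at least 4-fold.

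**Figure D1:**
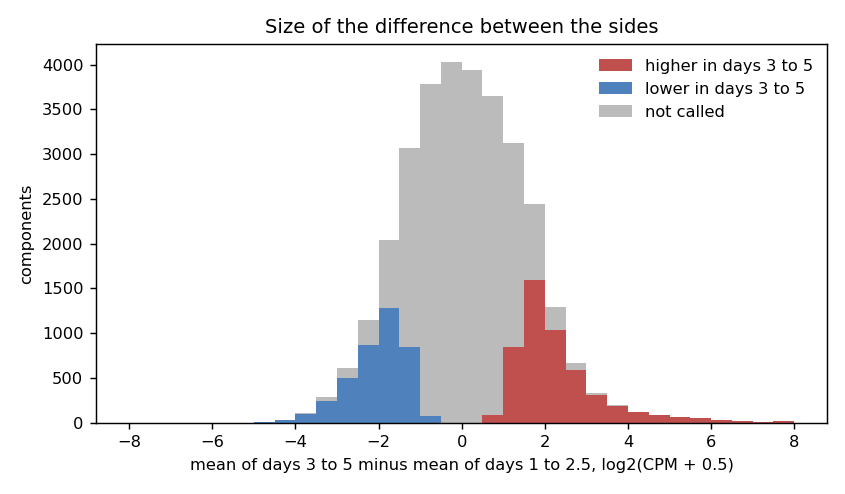
Number of components (vertical axis) by the difference between the mean of days 3 to 5 and the mean of days 1 to 2.5 in log2(CPM + 0.5) (horizontal axis, bins of 0.5, values beyond the ends in the end bins). Colours stack the 5039 components higher in days 3 to 5, the 3952 lower and the 22153 not called, and with TMM the right tail reaches further than the left.

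In the higher group, median levels were 5.88, 11.1 and 11.8 CPM at days 3, 4 and 5, against 0.674, 0.938 and 1.04 CPM at days 1, 2 and 2.5. In the lower group, median levels were 4.78, 2.28 and 2.80 CPM at days 3, 4 and 5, against 19.97, 14.9 and 13.0 CPM at days 1, 2 and 2.5. These are medians over many components, and single members of either group ranged widely around them. On the log2(CPM + 0.5) scale the earlier libraries lay closer to one another than the later ones did. Days 3 to 5 also cover a longer time than days 1 to 2.5. Over all tested components the median range within the 3 later libraries was 0.99 log2 units, against 0.70 within the 3 earlier libraries. For the called components the corresponding medians were 1.03 and 0.50 in the higher group and 0.93 and 0.65 in the lower group. In the higher group the earlier medians lie near the 0.5 CPM added before taking logs, which narrows the earlier range.

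The share of components that passed, with TMM, was related to abundance. Among the 1839 components with a mean of 100 CPM or more, 31.4% were higher and 15.8% lower in the later embryos. Between 10 and 100 CPM, 18.6% of 7980 were higher and 21.1% lower, the only one of the 4 classes in which falls outnumbered rises. Of the 15207 components between 1 and 10 CPM, 14.7% were higher and 11.2% lower. Under 1 CPM the shares were 12.05% and 4.58% of 6118, and there counting error limits what can be called. Components of 2 or more contigs made up 43.5% of the higher group, 43.9% of the lower group and 43.0% of all tested ones. The longest contig of a component had a median length of 1324 nt in the higher group, 1649 nt in the lower group and 1292 nt over all tested components.

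How many rose and how many fell depended on the scaling. TMM factors were 0.876, 0.818 and 0.874 at days 3, 4 and 5, against 1.15, 1.15 and 1.20 at days 1, 2 and 2.5, so the scaling itself follows the comparison. With TMM the median log2 fold of all tested components was 0.06. It was 0.19 with DESeq2 size factors, -0.38 with library totals alone and -0.40 with the deposited TPM. Of the called components 56.0% were higher with TMM, against 61.1% with DESeq2 size factors, 35.9% with library totals and 30.0% with limma on log2(TPM + 1). Which direction prevailed is thus not settled by these data. Which components were called depended on the scaling as well. Library totals gave 3644 higher and 6520 lower calls, against 5039 and 3952 with TMM. For limma on log2(TPM + 1) there were 4046 and 9460. A core of 3240 higher and 3343 lower components, 64.3% and 84.6% of those reported, was called in the same direction with TMM, DESeq2 size factors, library totals, TPM and median-centred TPM. None of the 8991 components was called in the opposite direction in any of these fits, but this outcome was nearly fixed beforehand. The fits rescale the same 6 libraries, and scaling moved the median log2 fold by less than most called components differed. The absence of opposite calls is therefore no separate evidence.

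The number of calls depended on which stages entered. Each fit without a library has fewer libraries from which to estimate the spread. Leaving out day 2 left 1605 calls and leaving out day 4 left 1296, against 8991 with all libraries. There were 3763 calls without day 5, 5399 without day 2.5 and 6716 without day 1. Without day 3 the number was 11845, more than with all 6 libraries. In all 6 of these fits every one of the 8991 components kept its direction, but this outcome was nearly fixed beforehand. Groups that do not overlap keep their order when a library is removed. Such groups made up 97.9% of the rises and 99.9% of the falls that were called. The kept direction is therefore no separate evidence. Components called in all 6 fits numbered 880 higher and 193 lower. A previously seen pattern sets the libraries of days 1, 2.5 and 5 apart from those of days 2, 3 and 4 in some contigs, and these sets divide the 2 groups unequally. The sample titles name no such sets, and no values for the pattern are given here. With the set as a further term 5983 components were called, 3710 higher and 2273 lower, and its part in the result was not otherwise tested.

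Among the called components, the stages within each group were ordered along the direction of the call more often than against it. Of the 5039 higher components, 4932 had every later library above every earlier one, and of the 3952 lower components 3949 had every later library below. Over all tested components such separation was common: 27.4% were separated upward and 26.8% downward, 54.1% in all, so it adds little beyond the test. Among the higher components 1873 were ordered upward over days 3, 4 and 5 and 405 downward. Over days 1, 2 and 2.5, 1659 of them were ordered upward and 417 downward. Among the lower components 1200 were ordered downward over days 3 to 5 and 218 upward. Over days 1 to 2.5, 1742 of the lower components were ordered downward and 201 upward. These orders rest on single libraries, and small steps lie within counting error for scarce components. They were not counted over all tested components, so whether they are particular to the calls was not tested.

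A flat level on both sides of the divide was found in a minority. In 1957 higher components, or 38.8%, the libraries of each group lay within 2-fold of one another, and the same held for 1499 lower components, or 37.9%. The earlier side alone was within 2-fold for 81.9% of higher and 70.8% of lower components, and the later side alone in 48.6% and 54.1%. The step between day 2.5 and day 3 is given as a description, since both libraries took part in the calls and a call favours components with little spread inside a group. It amounted to at least 50% of the difference between the group means in 4031 higher components and 3069 lower ones. Its median was 1.45 log2 units in the higher group and -1.28 in the lower group. Neither flatness nor this step was counted over all tested components, so whether they are particular to the calls was not tested.

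Wide separation was rare and, with TMM, mostly upward. In 817 components, 2.62% of those tested, the lowest later library stood more than 4-fold above the highest earlier one, and in 118, or 0.379%, the reverse was true. At 2-fold the numbers were 2895, or 9.3%, and 2175, or 6.98%. This imbalance rested on day 3: without that library 1876 components were separated 4-fold upward and 1616 downward. Without day 2.5 there were 1081 and 355, while without day 4 there were 875 and 119. It also rested on the scaling, with 877 upward and 86 downward with DESeq2 size factors, 563 and 476 on library totals, and 696 and 815 on the deposited TPM. The pseudocount moved the numbers and the size of the imbalance but not its direction. There were 1772 upward and 385 downward at 0.05 CPM, and 290 and 20 at 5 CPM. The upward part was 82.2% at 0.05 CPM, 87.4% at 0.5 CPM and 93.5% at 5 CPM. Day 3 was the later library nearest to the earlier side in 89.0% of the 118 and in 77.8% of the 817. Day 2.5 was the earlier library nearest to the later side in 55.9% and 54.3%.

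To read a library that had not taken part in the calls, each was left out of the fit in turn and then placed on a line between the means of the groups. A position of 0% is the mean of the opposite group and 100% is the mean of the 2 other libraries of its own group. Day 4 lay closer to its own group than to the opposite one in 98.5% of the 1296 components called without it. Its median position was 114%, beyond the mean of days 3 and 5. Day 5 was nearer its own group in 94.0% of 3763 components, with a median position of 103%. Day 1, day 2 and day 2.5 were nearer their own group in 95.4% of 6716, 96.3% of 1605 and 92.1% of 5399 components. Their median positions were 110%, 94.7% and 84.1%.

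Day 3 was the exception. Of the 11845 components called without it, only 58.9% had day 3 nearer to days 4 and 5 than to days 1 to 2.5. Its median position was 58.0% (interquartile range 34.3% to 79.6%), and 84.8% of components had it strictly between the means of the groups. The 5 other libraries were nearer their own group in 92.1% to 98.5% of the components called without them. Those calls were made with day 3 in the later group, which favours components where day 3 lies with days 4 and 5. For days 4 and 5 the mean of the own group also included day 3. The percentages thus come from unlike sets of components. In components that were higher in days 4 and 5, day 3 had a median position of 62.7%, and in those that were lower, 53.9%. That order depended on the scaling and the pseudocount: the medians were 58.3% and 60.4% with library totals, 58.5% and 60.4% with the deposited TPM, and 53.2% and 62.6% with TMM and a pseudocount of 5. Over both directions together, day 3 was nearer its own group in 58.4% to 61.9% of components on the 5 scales tried. All 5 scales read the same 11845 components, called with TMM, and calls were not remade for this. By direction the shares moved more, from 52.7% (higher components, pseudocount of 5) to 66.7% (lower components, deposited TPM).

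**Figure D2:**
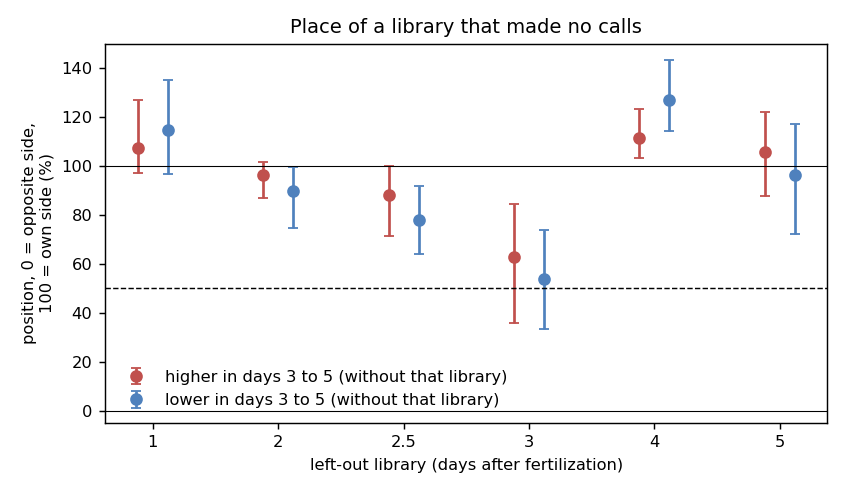
Median position, with its interquartile range as the bar, of each library (horizontal axis, days after fertilization) among components called without it, on a scale where 0% is the mean of the opposite group and 100% the mean of the other libraries of its own group. Day 3 sits near the 50% midpoint (dashed), and the other 5 medians in each direction lie between 78.1% and 127%.

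The components called higher and lower held different shares of the counts in the 2 groups of libraries. Components of the higher group took 37.1%, 47.9% and 50.9% of the counts at days 3, 4 and 5, against 9.59%, 12.9% and 15.9% at days 1, 2 and 2.5. Their mean share was 45.3% ± 7.23 in the later libraries and 12.8% ± 3.14 in the earlier ones (SD over 3 stages each). The lower group took 6.11%, 3.20% and 3.74% at days 3, 4 and 5, against 26.4%, 21.3% and 19.7% at days 1, 2 and 2.5. Means were 4.35% ± 1.54 and 22.5% ± 3.49 (SD over 3 stages each). Components that were not called took 55.9%, 47.9% and 44.5% at days 3, 4 and 5, against 63.7%, 65.2% and 63.6% at days 1, 2 and 2.5. The most abundant component was not among the calls, with 8.34%, 9.72% and 7.79% in the later libraries and 9.11%, 6.47% and 2.60% in the earlier ones.

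These shares describe components that the same counts chose, and carry no test. They moved with the calls: with calls made without 1 library, the higher group held a mean of 14.3% (without day 2) to 48.0% (without day 3) of the later counts. The lower group then held 1.89% (without day 4) to 36.5% (without day 3) of the earlier counts. With calls from limma on log2(TPM + 1), the higher components held 43.8% of the later and 8.66% of the earlier TPM, and the lower ones 12.7% and 46.5%. A share of counts also grows with transcript length, so shares of the deposited TPM, which is per length, were taken for the same components. The higher group held 51.3% of the TPM in the later libraries and 13.4% in the earlier ones, and the lower group 3.54% and 20.8%. The 876 higher and 193 lower components that were called under every scaling and without any 1 library made up a smaller part. Those higher ones took 9.64%, 14.2% and 15.5% at days 3, 4 and 5, against 1.41%, 2.03% and 2.53% at days 1, 2 and 2.5.

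**Figure D3:**
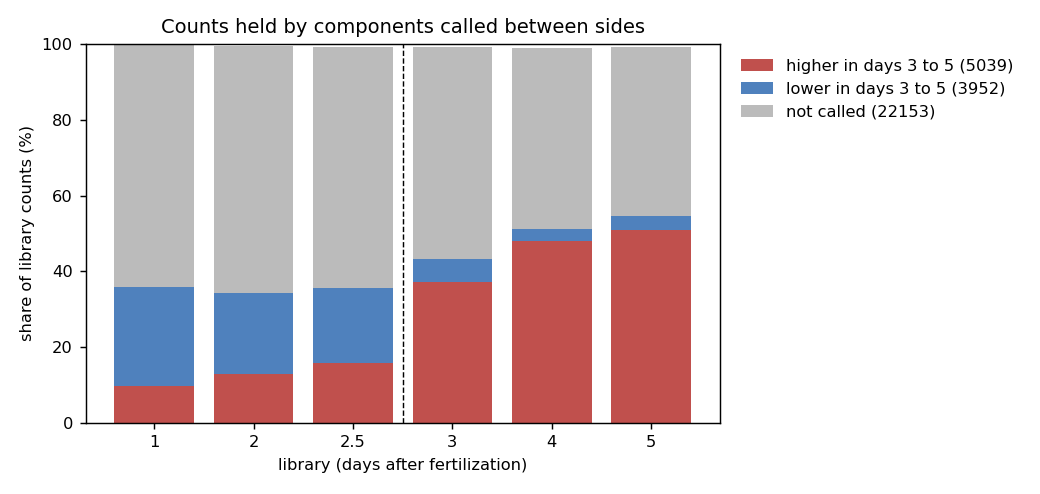
Share of each library's counts (vertical axis, %) held by components higher in days 3 to 5, lower in days 3 to 5 and not called, stacked for each of the 6 libraries in order of day; the dashed line divides the groups. The higher group covers 37.1% to 50.9% of the later libraries and 9.59% to 15.9% of the earlier ones.

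The later counts of the higher group lay in fewer components than the earlier counts of the lower group. In the later libraries, 131 of the 5039 higher components held 50% of that group's counts, and 10 of them took 5.62% of all counts. In the earlier libraries it took 340 of the 3952 lower components to reach 50% of theirs, and the top 10 took 1.38% of all counts. The whole RNA pool was also more concentrated in the later embryos, a measure that does not use the calls. The whole pool includes the called components, and concentration was not measured among those not called. Whether the contrast is particular to the called components was therefore not tested. The smallest number of components that held 50% of a library's counts was 426, 323 and 365 at days 3, 4 and 5, against 880, 839 and 910 at days 1, 2 and 2.5. The 100 most abundant components of each library took 30.3%, 34.4% and 33.3% at days 3, 4 and 5, against 23.6%, 23.0% and 20.1% at days 1, 2 and 2.5. Neither measure overlapped between the groups.

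With 3 libraries against 3, a two-sided exact permutation test cannot give a p below 0.10. Both measures gave that value, or 0.13 after Benjamini-Hochberg adjustment over the 4 library measures tested. Components of 2 or more contigs took 52.5%, 52.6% and 51.2% of the counts at days 3, 4 and 5, against 57.2%, 54.6% and 52.9% at days 1, 2 and 2.5, with the same p-values in the exact permutation test. This share already fell over the earlier stages, and days 2.5 and 3 were close, at 52.9% and 52.5%. The test cannot tell such a drift from a step, since any 3 against 3 without overlap gives the same p. Tested components with at least 1 count numbered 31006, 30791 and 30501 at days 3, 4 and 5, against 27046, 30369 and 30633 at days 1, 2 and 2.5. These overlapped (exact permutation p = 0.20, also 0.20 after adjustment). A number of detected components can depend on depth, and the part of depth here was not tested. Day 1 had the most counts, 21910022, and the fewest detected components, while day 5 had the fewest counts, 15503418.

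**Figure D4:**
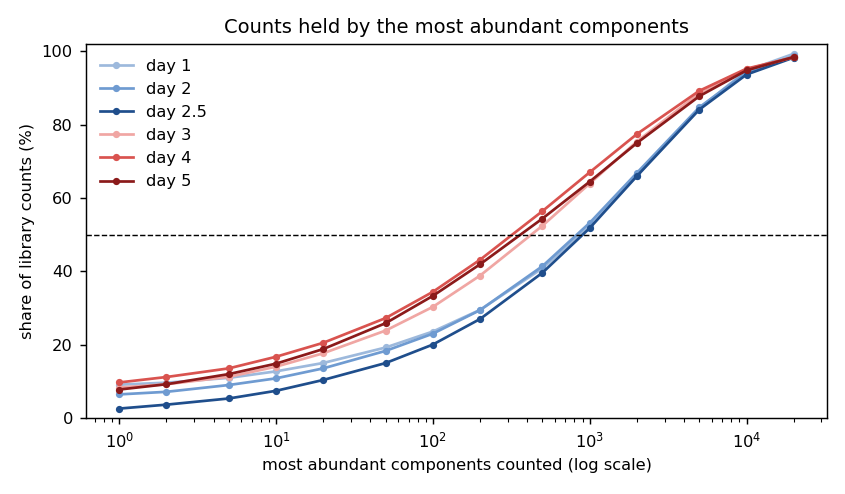
Share of a library's counts (vertical axis, %) held by its most abundant components (horizontal axis, number of components, log scale), with 1 line for each day. At 500 components the lines of days 3, 4 and 5 are at 52.5% to 56.4% and those of days 1, 2 and 2.5 at 39.6% to 41.4%, while at 1 component they overlap.

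Components with fewer than 3 counts throughout a group and 10 or more throughout the other were a small part of the difference. In 438 components, 1.41% of those tested, each library of days 3 to 5 had 10 or more counts and each library of days 1 to 2.5 had fewer than 3. Their median was 28, 44 and 34 counts at days 3, 4 and 5, against 0, 0 and 1 at days 1, 2 and 2.5. Together they took 0.107%, 0.265% and 0.258% of the counts at days 3, 4 and 5. The most abundant reached 3590 counts at day 5. The mirror set held 75 components, or 0.241%, with fewer than 3 counts in each later library and 10 or more in each earlier one. Their median was 2, 1 and 1 counts at days 3, 4 and 5, against 43, 16 and 21 at days 1, 2 and 2.5, and none had more than 231 counts in any library. All 438 and all 75 were among the calls, against 28.9% of all tested components. Their definition already separates the groups completely, so this adds nothing to the test. Fewer than 3 counts do not show that a transcript was absent.

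The components with the largest change in share of counts illustrate both sides. The largest gain was that of lcl|comp110470_c0, a single contig of 1807 nt. It had 7668, 10838 and 14360 CPM at days 3, 4 and 5, against 23.2, 391 and 1009 CPM at days 1, 2 and 2.5. Its level was thus higher at each later stage of the whole series, and as a ratio its earlier libraries differed among themselves by more than its later ones. The edgeR log2 fold was 4.53 ± 1.15 (SE), with an adjusted p of 0.026. It took 0.938% ± 0.295 of the counts in the later libraries and 0.0564% ± 0.0602 in the earlier ones (SD over 3 stages each). Without day 2, day 4 or day 5 its adjusted p was 0.096, 0.085 or 0.067.

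The next largest gain, lcl|comp282727_c1, had 2 contigs, the longer of 2226 nt. It had 4598, 7875 and 8214 CPM at days 3, 4 and 5, against 280.3, 487 and 612 CPM at days 1, 2 and 2.5. Its level was higher at each successive stage, and the groups were far apart, with the lowest later library 2.91 log2 units above the highest earlier one. Its edgeR log2 fold was 3.91 ± 0.45 (SE) with an adjusted p of 0.0054, and its adjusted p stayed at or below 0.043 whichever library was left out.

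The largest loss was that of lcl|comp288687_c0, a single contig of 3311 nt. It had 417, 53.7 and 25.7 CPM at days 3, 4 and 5, against 3716, 2287 and 1573 CPM at days 1, 2 and 2.5. Its level fell at every stage, and on the log scale most of the drop came after day 2.5. The edgeR log2 fold was -3.93 ± 1.05 (SE), with an adjusted p of 0.030 that became 0.076, 0.115 and 0.061 without day 2, day 4 or day 5. The second loss, lcl|comp283095_c1, had 3 contigs, the longest of 2535 nt. It had 365, 87.3 and 34.8 CPM at days 3, 4 and 5, against 2590, 2017 and 1147 CPM at days 1, 2 and 2.5. Its groups did not overlap, as in 99.9% of all lower components, and day 3 was again the nearest later library. The log2 fold was -3.56 ± 0.86 (SE) with an adjusted p of 0.023, and 0.067 and 0.103 without day 2 or day 4.

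**Figure D5:**
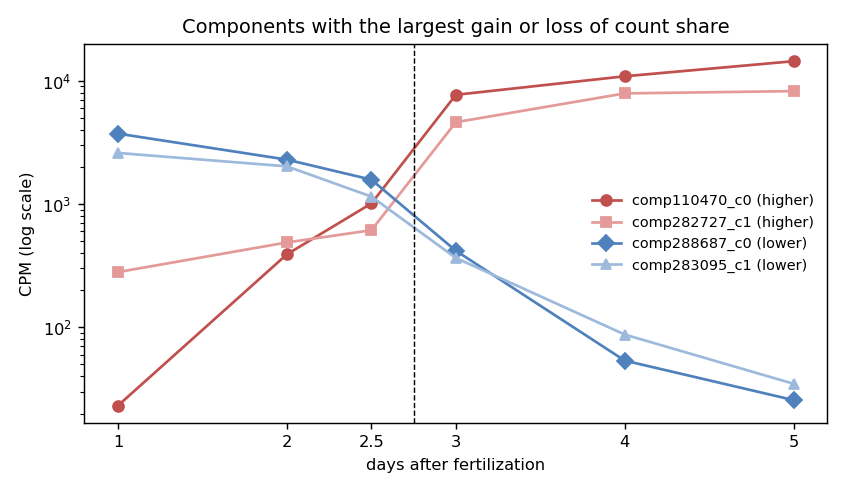
CPM (vertical axis, log scale) by days after fertilization (horizontal axis) for the 2 called components with the largest gain and the 2 with the largest loss in mean share of counts; each point is 1 library and the dashed line divides the groups. The gains end at 14360 and 8214 CPM and the losses at 25.7 and 34.8 CPM.

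The 10 largest gains together took 4.38%, 5.35% and 6.40% of the counts at days 3, 4 and 5, against 0.704%, 1.10% and 1.56% at days 1, 2 and 2.5. In 6 of them the level rose between every pair of successive stages. The groups did not overlap in any of the 10, as in 97.9% of all higher components and 27.4% of those tested. In 4 of the 10 they were more than 4-fold apart, against 2.62% of those tested. The 8 that are not named differed by 1.62 to 9.74 on the log2(CPM + 0.5) scale, with edgeR adjusted p-values of 0.0060 to 0.016. The 10 largest losses took 0.219%, 0.0598% and 0.0432% at days 3, 4 and 5, against 1.74%, 1.34% and 0.980% at days 1, 2 and 2.5. In 6 of them the level fell at every stage, and 1 was more than 4-fold apart, against 0.379% of those tested. The 8 not named differed by -5.52 to -2.36 on the same scale, with edgeR adjusted p-values of 0.010 to 0.020. All 20 were chosen for their change in these counts, so their values are a description.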

How the data were processed

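The 6 RNA-seq libraries of whole embryos, 1 for each stage, were compared. Per the labels' protocols, embryos were frozen, RNA was extracted with Trizol, and NEBnext libraries were sequenced as paired ends. The submitters' processing notes name RSEM; version, aligner and assembler were not given in the sources used here. For each of 145913 contigs the columns are expected count, TPM and FPKM, per the file headers. Per the deposited files, the expected counts are estimated fragment counts, not normalized, and 39.2% to 50.6% of nonzero values in a library were more than 0.005 from a whole number. The authors' TPM values are per effective length and have the same sum in every library. The deposited FPKM was not used.

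Expected counts were summed by component (identifier without its final sequence number) and rounded, and components with 60 or more counts over the 6 libraries were kept. The groups were compared with edgeR 4.0.16 (TMM, quasi-likelihood, 4 residual degrees of freedom, Benjamini-Hochberg at 0.05), and the scripts were tested on simulated data. There, 9 of 100 components changed 4-fold and 58 of 100 changed 8-fold were called, all in the right direction. Of 30944 unchanged ones, 4 were called. Far fewer components were changed there than were called here, and the changed ones were drawn only from those with 600 or more counts. The simulated libraries of a group also differed at random, not as ordered stages. For these reasons the shares do not carry over. A component that was not called is not thereby unchanged. Standard errors are the log2 fold divided by the square root of the F statistic. Alternatives used DESeq2 1.42.0, limma 3.58.1 on log2(TPM + 1), contigs, other filters and pseudocounts, and each library left out. Named components are the 2 gains and 2 losses with the largest difference in mean share of counts among those called. None of the contig identifiers occurs in the reference name table of 45433 genes. The comparison and its rules were chosen with earlier results of these data known. R 4.3.3, Python 3.11.15, numpy 2.4.6, pandas 2.3.3 and scipy 1.17.1 were used.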

Additional observations from a re-analysis of the deposited data

How the results depend on the processing

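Against 8991 calls there were 13506 with limma on log2(TPM + 1) and 5983 with a term for the library set. Testing against a fold of 2 gave 3415, and leaving out 1 library gave 1296 to 11845. Among components with 600 or more counts, 5740 of 13364 were called, or 42.95%, against 28.9% of the 31144 reported. That smaller number of calls was thus a larger share of those tested. For contigs 4770 of 47521 were called, or 10.04%, a smaller share. The share of higher components, 56.0%, reversed to 30.0% with limma on TPM and to 35.9% with library totals, and was 50.1% to 81.9% with 1 library left out. Components 4-fold apart, 935 in all, became 310 with a pseudocount of 5, 2157 with 0.05, 1511 with the deposited TPM, 1830 for contigs and 994 to 3492 with 1 library left out. With 1 library left out, the higher group held 14.3% to 48.0% of the later counts and the lower group 1.89% to 36.5% of the earlier counts; with limma on TPM the lower group held 46.5% of the earlier TPM. The other 64 alternative values kept their direction, and counts among them stayed within 1.5 times those reported. Of 36 alternative log2 folds of the named components, 28 stayed past an adjusted p of 0.05. The other 8, all with a library left out, did not. The values with a pseudocount of 5 could not fail, since the edgeR test does not use that pseudocount and the adjusted p is unchanged. None of the 36 changed sign. With a library left out a change of sign was hardly possible, since the groups of each named component did not overlap. Library totals, median-centred TPM, the pseudocount of 0.05, removal of the most abundant component the positions of left-out libraries on library totals and on the deposited TPM, and shares of TPM were chosen after seeing the data. The causes were not tested. No paired analysis was possible because no stage was sampled more than once.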
